A study of Drosophila melanogaster with 12 samples.

Results

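The comparison described here is the effect of yeast restriction on mRNAs of heavy polysomes in adult male Drosophila melanogaster. It set the high translation fraction of flies fed 0.25% yeast extract (YE) against the high translation fraction of flies fed 4% YE, with 3 arrays per diet, chosen by their titles, which makes 6 of the 12 arrays of the series. All flies were w1118, a white-eyed laboratory strain, went onto their food when 1 to 2 days old, stayed on it for 6 days and were collected as whole males labelled 7-8 old, with no unit given. About 100 males were ground per sample and their RNA was separated on a sucrose gradient. The high fraction held mRNAs with 5 or more ribosomes and the low fraction, the other 6 arrays, mRNAs with 1 to 4. The study describes its 3 samples per group as individual biological replicates, and 100 ng of RNA was labelled for each array.

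Yeast is the main source of protein, amino acids and lipids in laboratory fly food, and lowering it is a common form of dietary restriction that extends lifespan in this species. An mRNA that is being translated carries several ribosomes and runs deep into a sucrose gradient, so the amount of an mRNA in the heavy fraction depends both on how much of it the fly makes and on how densely it is loaded with ribosomes. Feeding acts on translation through the insulin and TOR pathways, which raise initiation and ribosome production when amino acids are plentiful. The level measured on each array was a normalised intensity, and every difference given below is the log2 of the level on 0.25% YE minus that on 4% YE with the standard error (SE) of limma's fit. In RNA from whole flies, fewer cells of a type and less RNA per cell cannot be told apart.

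The arrays came from adult males as labelled. All 32 accessory gland genes and 43 of 50 sperm and testis genes with a probe set exceeded the background on all 6 high-fraction arrays, whereas 12 of 17 female germline and yolk genes did so on none. Among these 17 genes, the yolk protein gene Yp3 was the 1 that exceeded the background on all 6 arrays. It measured 55.5, 72.3 and 62.6 on 0.25% YE and 48.3, 39.7 and 37.3 on 4% YE. Female-biased genes outside this list were not examined as markers. Yp2 went the other way and exceeded the background on 3 of these arrays. It measured 3.23, 17.4 and 8.91 on 0.25% YE and 36.9, 48.4 and 36 on 4% YE. Background was the 95th percentile of the control probe sets of an array, and 59.0% to 66.4% of an array's probe sets lay above it. The arrays numbered 1 stood apart: in log2 intensity, replicates 2 and 3 correlated at 0.978 on 0.25% YE and at 0.988 on 4% YE, and replicate 1 correlated with them at 0.899 to 0.943. Every high-fraction call of the main fit was also made when all arrays numbered 1 were left out. That fit was chosen after the data were seen. It called 1302 of 11262 probe sets higher and 1211 lower, so it is no test of these calls.

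Of 11262 probe sets tested, 199 differed between the diets in the high fraction at an adjusted p under 0.05 (1.77%), which is what a call means below. On 0.25% YE 61 were higher (0.542%) and 138 were lower (1.23%). By the brightest probe set of each gene, 48 genes were called higher and 122 lower of 9495. The falls were the larger changes: 114 of the 138 exceeded 2-fold and 35 exceeded 4-fold, against 30 and 4 of the 61 rises. The median intensity of the probe sets that rose was 1530, that of the probe sets that fell was 470 and that of all probe sets tested was 183, which does not rank mRNA amounts, since probe sets differ in how well they bind. All 199 had arrays that did not overlap between the diets, as had 23.4% of all probe sets tested. An unadjusted p under 0.05 was reached by 1534 probe sets, where 563 are expected by chance.

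The number of calls depended on single arrays and on how the arrays were paired. Replicate number was also fitted as a block, since arrays sharing a number deviated alike in part. With the block 212 probe sets were higher (1.88%) and 262 lower (2.33%), and these held all 61 and 138 calls above. Counts with the block in the lists below stand against these shares, and percentages called in a list against 1.79% of all genes. The lists were chosen with earlier results of these data known, so their shares describe them and test nothing. Over all probe sets, the counts without 4% YE replicate 1, 2 or 3 were 29, 16 and 15 higher and 76, 45 and 46 lower. Without 0.25% YE replicate 3 they were 20 higher and 66 lower. In all 6 fits that left out 1 array, 11 of the rises and 43 of the falls were called, and a call is said below to hold when it is one of these 54. Higher calls made up 30.7% of all calls, 44.7% with the block, 22.4% when arrays were scaled by their medians and 14.6% with the values as deposited. In the deposited values the median log2 difference over all probe sets was 0.21, and list medians under that scaling are given relative to it. The restricted arrays were not all brighter. Array medians as deposited were 95.6, 51.4 and 40.7 on 0.25% YE and 46.3, 47.3 and 60.4 on 4% YE. Replicate 1 on 0.25% YE was thus the brightest and replicate 3 the dimmest.

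**Figure D1:**
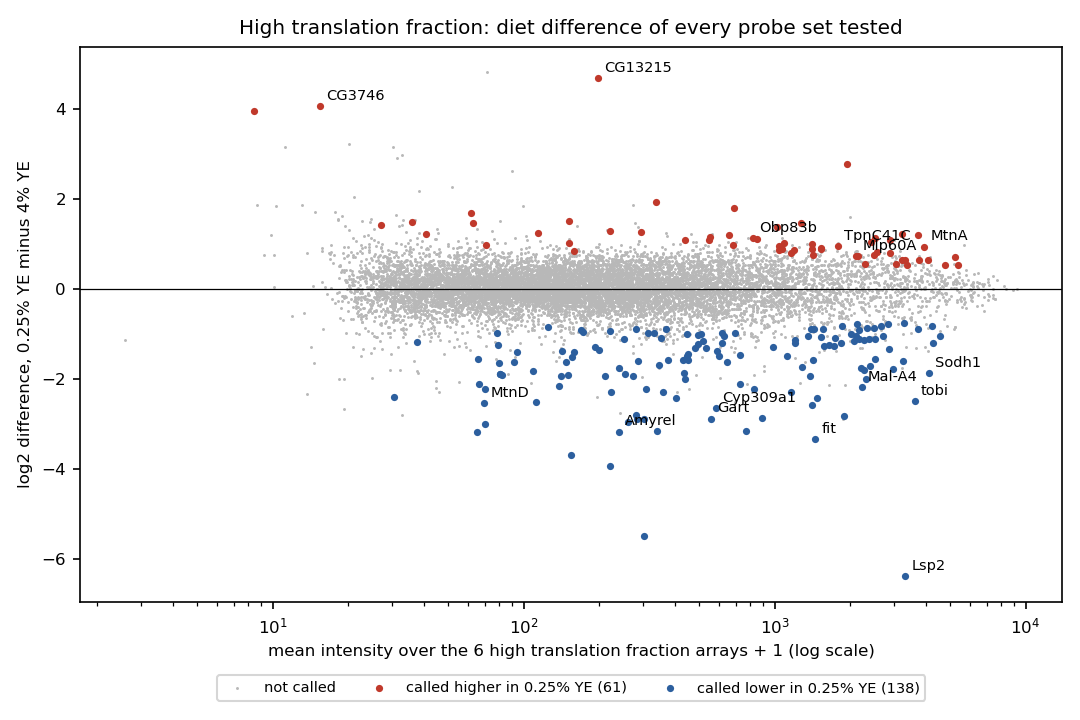
Each point is 1 of the 11262 probe sets tested, with its mean intensity over the 6 high translation fraction arrays plus 1 on a log axis and its log2 difference, 0.25% YE minus 4% YE, on the other. The 61 called higher (red) lie mostly at high intensity and within 2 log2 units of 0, and the 138 called lower (blue) reach down to -6.38 for Lsp2.

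The fall of the greatest size was that of Lsp2, which encodes larval serum protein 2, a hexamerin that the fat body secretes as a store of amino acids. It measured 17.8, 144 and 174 on 0.25% YE and 5860, 7000 and 6740 on 4% YE. The restricted arrays were thus all far below the rich ones, with replicate 1 lower than the other restricted replicates. The log2 difference was -6.38 ± 0.77, or 83.3-fold lower (adjusted p = 0.00125), and the call held. Without 0.25% YE replicate 1 the difference was -5.45, or 43.7-fold.

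The secreted peptide fit, produced by the fat body of the head and known as a satiety signal after protein feeding, fell as well. It measured 135, 345 and 354 on 0.25% YE and 2010, 2840 and 3040 on 4% YE, a fall of 10.1-fold with no overlap (-3.34 ± 0.59, adjusted p = 0.0144). Tsf1, the iron carrier transferrin of the haemolymph, measured 2050, 3560 and 3470 on 0.25% YE and 6310, 6290 and 5690 on 4% YE, and fell 2.07-fold (-1.05 ± 0.20, adjusted p = 0.0192). The calls of both were lost without 4% YE replicate 2 (adjusted p = 0.0791 for fit and 0.0951 for Tsf1) or replicate 3 (0.0779 and 0.0765), and that of Tsf1 also without 4% YE replicate 1 (0.0779).

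Lsp2 and Tsf1 were the 2 called of 22 fat body secreted proteins tested (9.09%, against 1.79% of all genes), 5 were called lower with the replicate block, 1 was without any 1 of the 4% YE arrays and 3 were without 0.25% YE replicate 1, and in these fits 0 were higher. The median of the list was -0.25, against 0.01 for all genes. Members that were not called included the lipid carrier precursor apolpp at -0.18 (adjusted p = 0.724) and the iron store subunit Fer1HCH at -0.24 (adjusted p = 0.535). The summed level of the list was 55300 to 61900 on 0.25% YE and 75900 to 81800 on 4% YE. The part of fat body mass in these falls was not tested.

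Several enzymes that cut dietary starch and sugars fell. Of 12 maltases and amylases tested, 5 fell, 7 were not called and 0 rose (41.7% called), and the log2 differences of all 12 were negative, with a median of -1.48. Arrays of 10 of the 12 did not overlap (83.3%, against 23.4% of all probe sets). With the block 6 were lower (50%, against 2.33% of all probe sets). Without any 1 of the 4% YE arrays 2 or 3 were, without 0.25% YE replicate 1 there were 3 and without replicate 3 there were 2, with medians from -1.70 to -1.09 over the fits. Scaled by medians and as deposited, the median was -1.51 and, relative to all probe sets, -1.52.

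Amyrel, an amylase-related glucosidase, measured 20.6, 80.1 and 54.4 on 0.25% YE and 302, 560 and 413 on 4% YE. Every restricted array was below every rich one, and the fall was 8.98-fold (-3.17 ± 0.42, adjusted p = 0.00243). The maltase Mal-A4 measured 584, 972 and 858 on 0.25% YE and 2800, 4340 and 3780 on 4% YE, which is 4.55-fold lower (-2.18 ± 0.25, adjusted p = 0.0009). Both calls held. In both genes replicate 1 was the lowest of its diet.

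Mal-A8 measured 854, 1400 and 1130 on 0.25% YE and 3270, 4100 and 3630 on 4% YE (-1.72 ± 0.30, adjusted p = 0.0141). Mal-A2 measured 530, 840 and 786 on 0.25% YE and 1900, 2450 and 2020 on 4% YE (-1.58 ± 0.34, adjusted p = 0.0359). The glucosidase tobi, named as a target of brain insulin, measured 410, 1810 and 1580 on 0.25% YE and 5000, 6590 and 6290 on 4% YE (-2.49 ± 0.53, adjusted p = 0.0361). None of these 3 had overlapping diets. Their calls did not hold. That of Mal-A8 was lost without 4% YE replicate 2 (adjusted p = 0.0791) or 3 (0.0635) or 0.25% YE replicate 3 (0.0531). The tobi call was lost in every fit but the one without 0.25% YE replicate 2, with adjusted p from 0.0611 to 0.145. The tobi difference was -1.85 without 0.25% YE replicate 1. The Mal-A2 call was lost in all 6 fits (0.0625 to 0.166). The maltases not called included Mal-A3 at -2.13 (adjusted p = 0.0855) and Mal-A1 at -0.49 (adjusted p = 0.215). Of 25 gut serine proteases tested, 0 were called, and 1 was lower with the block. Their median was 0.08, between -0.10 and 0.20 with 1 array left out and -0.05 with arrays divided by their medians, with a summed level of 49800 to 60100 on 0.25% YE and 54500 to 59600 on 4% YE.

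Enzymes of purine synthesis fell as well. Of 14 purine and pyrimidine genes tested, 4 fell and 0 rose (28.6%, against 1.79% of all genes), for a list median of -0.48. The 4 were Prps, which makes the activated ribose phosphate, Prat2, which takes the first committed step, Gart, a multifunctional enzyme of the middle steps, and Adsl, a lyase of a late step. With the block 6 were lower, the others being Pfas at -1.21 (adjusted p = 0.0433 with the block) and Paics at -0.74 (0.0128 with the block), which are enzymes of the same chain. Without 4% YE replicate 2 or 3 Gart was the 1 left in the list, and without 0.25% YE replicate 1 or 3 there were 2. The pyrimidine gene Dhod was at -0.03 (adjusted p = 0.977).

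Gart measured 99.6, 149 and 154 on 0.25% YE and 838, 1100 and 998 on 4% YE. Its restricted and rich arrays were several-fold apart, with a fall of 7.34-fold (-2.88 ± 0.23, adjusted p = 0.000109), and the call held. Prat2 measured 669, 1130 and 1300 on 0.25% YE and 3070, 3920 and 3500 on 4% YE (-1.81 ± 0.36, adjusted p = 0.0272). Its near copy Prat was at 0.10 (adjusted p = 0.954). Adsl measured 77.4, 125 and 136 on 0.25% YE and 229, 342 and 283 on 4% YE (-1.35 ± 0.26, adjusted p = 0.02). Prps measured 1480, 1790 and 1480 on 0.25% YE and 2990, 3550 and 3750 on 4% YE (-1.11 ± 0.22, adjusted p = 0.0235). In none of these did the diets overlap. The Adsl call was lost without 4% YE replicate 2 (0.112) or 3 (0.0891), the Prps call without 4% YE replicate 2 (0.108) or 3 (0.11) or 0.25% YE replicate 1 (0.0589) or 3 (0.103), and the Prat2 call in all 6 fits (0.0519 to 0.12).

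Purine rings take 1-carbon units and glycine that come from serine, and several enzymes that handle these were lower too. Of 26 amino acid and one-carbon genes tested, 7 fell, 19 were not called and 0 rose (26.9% called), for a list median of -0.75 and 25 of 26 differences negative. With the block 10 were lower (38.5%, against 2.33% of all probe sets). Without 4% YE replicate 1, 2 or 3 the count was 2, 1 and 1, and without 0.25% YE replicate 2 it was 4. Arrays of 20 of the 26 did not overlap between the diets (76.9%, against 23.4% of all probe sets).

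Mthfs, which returns a folate derivative to the active pool, measured 222, 172 and 172 on 0.25% YE and 612, 481 and 594 on 4% YE. It fell 2.98-fold with a wide gap between the diets (-1.58 ± 0.20, adjusted p = 0.00155), and the call held. Its probe set is of a type that can match more than 1 transcript. Shmt, which moves a carbon from serine to folate and releases glycine, measured 770, 1490 and 1710 on 0.25% YE and 3110, 4130 and 3830 on 4% YE (-1.55 ± 0.27, adjusted p = 0.0136). The serine racemase Srr measured 337, 201 and 180 on 0.25% YE and 711, 583 and 675 on 4% YE (-1.50 ± 0.27, adjusted p = 0.0144). The mitochondrial aspartate aminotransferase Got2 measured 2310, 3370 and 3560 on 0.25% YE and 5710, 5330 and 5110 on 4% YE (-0.83 ± 0.16, adjusted p = 0.0187).

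Arrays of the 2 diets did not overlap for any of these. The calls of Shmt, Srr and Got2 were lost without 4% YE replicate 2 (adjusted p = 0.0791, 0.0537 and 0.087) or 3 (0.0674, 0.077 and 0.0787), those of Srr and Got2 also without 4% YE replicate 1 (0.0575 and 0.0781), and that of Srr without 0.25% YE replicate 2 (0.057) or 3 (0.071). The other called members were the folate enzyme pug at -1.21 (adjusted p = 0.0239), the serine-forming phosphatase aay at -1.26 (adjusted p = 0.0403) and the cytosolic aminotransferase Got1 at -1.05 (adjusted p = 0.0321). The pug call was lost without 4% YE replicate 1 (0.0645), 2 (0.118) or 3 (0.1), the aay call in all 6 fits (0.0679 to 0.155) and the Got1 call in every fit (0.0876 to 0.123) but the one without 0.25% YE replicate 1. Members of the list that were not called included the S-adenosylmethionine synthetase Sam-S at -0.15 (adjusted p = 0.859) and glutamate dehydrogenase Gdh at -0.24 (adjusted p = 0.766).

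A pair of enzymes that turn threonine into glycine, named here after their values were seen, also fell. Tdh, the threonine dehydrogenase, measured 102, 90 and 70.7 on 0.25% YE and 210, 229 and 247 on 4% YE (-1.39 ± 0.20, adjusted p = 0.00372). Gcat, which acts next, measured 87.5, 127 and 128 on 0.25% YE and 455, 442 and 397 on 4% YE (-1.93 ± 0.26, adjusted p = 0.00243). Both had all restricted arrays below all rich ones, and both calls held.

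Among 15 sugar and glycogen genes, 4 fell and 0 rose (26.7%), for a list median of -0.57 and 2 lower without any 1 of the 4% YE arrays or 0.25% YE replicate 3. Sodh1, a sorbitol dehydrogenase, measured 1070, 2410 and 2080 on 0.25% YE and 6920, 6250 and 6040 on 4% YE (-1.87 ± 0.26, adjusted p = 0.00372). Pepck1, the phosphoenolpyruvate carboxykinase that starts gluconeogenesis, measured 3310, 2410 and 2160 on 0.25% YE and 6250, 5740 and 5740 on 4% YE (-1.19 ± 0.16, adjusted p = 0.0023). Both were lower on every restricted array, and both calls held.

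The gluconeogenic phosphatase fbp measured 1380, 1780 and 1340 on 0.25% YE and 4030, 2970 and 2830 on 4% YE (-1.12 ± 0.24, adjusted p = 0.0356). Galactokinase, Galk, measured 1710, 1980 and 1240 on 0.25% YE and 4600, 3700 and 3900 on 4% YE (-1.33 ± 0.23, adjusted p = 0.0141). Men, the malic enzyme that supplies NADPH for fat synthesis, measured 1850, 1660 and 1750 on 0.25% YE and 2920, 3320 and 3370 on 4% YE (-0.87 ± 0.15, adjusted p = 0.0136). Each had separate diets, but the calls of fbp and Galk were lost without any 1 of the 4% YE arrays (0.0847 to 0.134 for fbp and 0.0513 to 0.0625 for Galk) and without 0.25% YE replicate 3 (0.14 and 0.0614), and that of fbp without 0.25% YE replicate 1 (0.0767). The Men call was lost without 4% YE replicate 2 (0.0807) or 3 (0.0799) or 0.25% YE replicate 3 (0.0524). Men was the 1 called of 23 genes of fatty acid synthesis and fat storage (median -0.25). CG9547 was the 1 called of 14 on the list of fatty acid oxidation (median -0.40), at -2.29 ± 0.40 (adjusted p = 0.0136), a call lost without 4% YE replicate 2 (0.0791) or 3 (0.0628). Of 13 glycolytic and 13 citric acid cycle genes, 0 were called, with medians of -0.14 and -0.18.

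Enzymes of detoxification were lower in part. Of 72 cytochrome P450s, which oxidise toxins and hormones, 6 were lower and 0 were higher (8.33%, median -0.37). Of 33 glutathione S-transferases, which conjugate toxins to glutathione, 2 were lower and 0 were higher (6.06%, median -0.31). Of 28 UDP-glycosyltransferases, which conjugate them to sugars, 4 were lower and 0 were higher (14.3%, median -0.60). These percentages stand against 1.79% of all genes. With the block the lower counts in the 3 families were 12, 6 and 8. Without 4% YE replicate 2 or 3 they were 2, 1 and 1, and without 4% YE replicate 1 they were 2, 2 and 2.

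Cyp309a1 was a P450 with tight replicates, at 160, 173 and 143 on 0.25% YE and 1170, 962 and 881 on 4% YE. It was 6.27-fold lower (-2.65 ± 0.23, adjusted p = 0.00014). Cyp12d1-d, known in flies for its induction by insecticides and other chemicals, measured 43.8, 80.3 and 65.5 on 0.25% YE and 225, 271 and 207 on 4% YE (-1.91 ± 0.26, adjusted p = 0.00243). GstD8 measured 50.9, 51.5 and 46.3 on 0.25% YE and 191, 258 and 228 on 4% YE (-2.15 ± 0.31, adjusted p = 0.00395). For these 3 no restricted array came near a rich one, and the calls held.

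Ugt37B1 measured 42.2, 61.5 and 38.6 on 0.25% YE and 183, 179 and 144 on 4% YE (-1.83 ± 0.28, adjusted p = 0.00582), and its call held as well. Ugt37A1 had the second largest fall among named genes, at 9.09, 32.1 and 33.3 on 0.25% YE and 135, 528 and 581 on 4% YE (-3.94 ± 0.73, adjusted p = 0.0168). Replicate 1 was the lowest of both diets, and 2 of the 3 restricted arrays exceeded the background. The call was lost without 4% YE replicate 2 (0.0925) or 3 (0.0929) or 0.25% YE replicate 1 (0.0576), and the difference was -4.60 without 4% YE replicate 1. GstD4 was not above background on any 0.25% YE array and was at least 2.59-fold lower there (adjusted p = 0.00825), a bound that sets the mean of the rich arrays over the background of the restricted ones. Its call was lost without 4% YE replicate 2 (0.0513) or 3 (0.0622). Ugt37A3, at -1.65 ± 0.30 (adjusted p = 0.0149), Cyp28d1, at -1.11 ± 0.20 (adjusted p = 0.0163), and Cyp6d5, at -0.88 ± 0.15 (adjusted p = 0.0136), were lost without any 1 of the 4% YE arrays (0.0525 to 0.0898) or 0.25% YE replicate 3 (0.0611 to 0.071). Ugt49C1, at -0.91 ± 0.19 (adjusted p = 0.034), was lost in all 6 fits (0.0518 to 0.139). Catalase, Cat, which breaks down hydrogen peroxide, was the 1 called of 14 antioxidant enzymes, at 1940, 2900 and 2550 on 0.25% YE and 3810, 4330 and 4200 on 4% YE (-0.76 ± 0.17, adjusted p = 0.0449). The Cat call was lost in every fit (0.0766 to 0.192) but the one without 0.25% YE replicate 2.

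**Figure D2:**
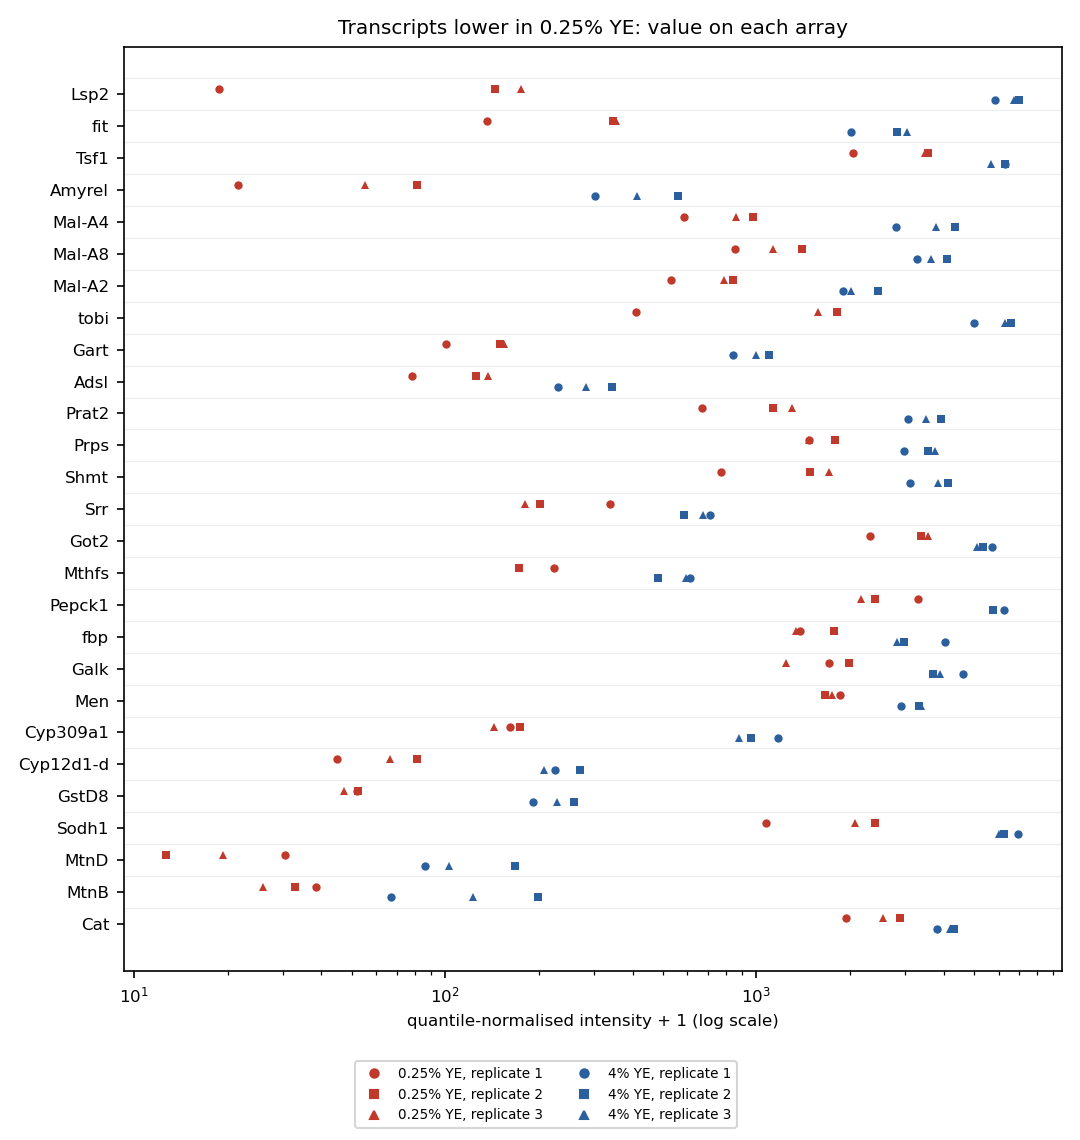
Quantile-normalised intensity plus 1 on a log axis for 27 transcripts called lower, with the 3 arrays on 0.25% YE (red) drawn above the 3 arrays on 4% YE (blue) and a marker shape per replicate number. In every row the red points lie left of the blue points. The red circles, replicate 1, are often the leftmost of their diet, as for Lsp2 at 17.8 and tobi at 410.

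The metallothioneins, small proteins that bind copper and zinc, moved in both directions. MtnD measured 29.6, 11.7 and 18.3 on 0.25% YE and 85.3, 166 and 102 on 4% YE (-2.54 ± 0.40, adjusted p = 0.00648), with 1 of the 3 restricted arrays above the background, so that the size of its fall is poorly fixed. MtnB measured 37.3, 32 and 25 on 0.25% YE and 65.8, 197 and 122 on 4% YE (-1.88 ± 0.42, adjusted p = 0.0437). MtnA, by far the most intense of them, measured 5140, 4960 and 5430 on 0.25% YE and 2370, 3240 and 2530 on 4% YE (0.94 ± 0.12, adjusted p = 0.00169). Thus 2 members fell, 1 rose and the fourth was not called, with no overlap of the diets in the 3 called. The MtnA and MtnD calls held, and that of MtnB was lost in every fit (0.0695 to 0.189) but the one without 4% YE replicate 1.

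Several of the largest falls were of genes that the annotation names by number. CG3999 measured 38.1, 87.5 and 101 on 0.25% YE and 475, 590 and 514 on 4% YE (-2.89 ± 0.31, adjusted p = 0.000661). CG10621 measured 147, 290 and 226 on 0.25% YE and 1450, 1590 and 1660 on 4% YE (-2.87 ± 0.41, adjusted p = 0.00386). CG13325 measured 55.1, 77.5 and 67.9 on 0.25% YE and 298, 525 and 658 on 4% YE (-2.81 ± 0.29, adjusted p = 0.000522). All 3 were several-fold lower on every restricted array and held, as did CG34316 at -3.68 ± 0.50 (adjusted p = 0.00257), of which 2 of 3 restricted arrays exceeded the background.

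Other falls as large did not hold. CG15263, at -3.16 ± 0.67 (adjusted p = 0.0359), was lost in every fit (0.0573 to 0.162) but the one without 0.25% YE replicate 2, and was at -2.44 without 0.25% YE replicate 1. CG31089 exceeded the background on no restricted array and was at least 6.19-fold lower (adjusted p = 0.0361), a call lost in all 6 fits (0.0626 to 0.166). CG12224, at -2.96 ± 0.56 (adjusted p = 0.0187), was lost without 4% YE replicate 2 (0.0969) or 3 (0.0847) or 0.25% YE replicate 1 (0.0595) or 3 (0.0716). CG15533, at -2.88 ± 0.53 (adjusted p = 0.017), was lost without 4% YE replicate 1 (0.0616), 2 (0.0845) or 3 (0.0784). LManIV, a lysosomal mannosidase, measured 2.87, 17.9 and 19.5 on 0.25% YE, with 1 of these above the background, and 48.6, 143 and 153 on 4% YE (-3.17 ± 0.66, adjusted p = 0.0319). Its call was lost without 4% YE replicate 2 (0.153) or 3 (0.146) or 0.25% YE replicate 1 (0.0604), with -2.35 without the last. Among the 138 falls, 8 probe sets had no symbol and 5 had several.

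Among the rises, CG13215 was the clearest. It measured 382, 396 and 362 on 0.25% YE and 16, 12.5 and 13.4 on 4% YE, where it exceeded the background on no array. Against that background it was at least 17.3-fold higher on 0.25% YE (adjusted p = 6.52e-05), and its 3 restricted arrays were close together. CG3746, at 45.8, 17.8 and 20.3 on 0.25% YE and 3.13, 0 and 0 on 4% YE, was at least 1.21-fold higher (adjusted p = 0.0026). CG14321 read 0 on all 3 rich arrays and 13.3, 10.6 and 20.7 on the restricted ones (adjusted p = 0.000885), but exceeded the background on 1 array, so no fold is given. All 3 calls held.

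Other rises were measured on both diets. CG13947, whose probe set can match related sequences, measured 5170, 3030 and 1990 on 0.25% YE and 719, 396 and 341 on 4% YE (2.77 ± 0.35, adjusted p = 0.00171). CG3348 measured 1130, 958 and 1110 on 0.25% YE and 246, 379 and 308 on 4% YE (1.79 ± 0.26, adjusted p = 0.00372). Dtd, which removes D-amino acids wrongly attached to tRNA, measured 278, 174 and 217 on 0.25% YE and 84.3, 64.6 and 83.7 on 4% YE (1.50 ± 0.21, adjusted p = 0.00372). These 3 rises held and every restricted array exceeded every rich one. So did those of osi, at 1.22 ± 0.13 (adjusted p = 0.000522), CG14022, at 1.46 ± 0.20 (adjusted p = 0.00243), and CG13306, at 1.47 ± 0.22 (adjusted p = 0.00495).

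The rest of the largest rises did not hold. CG14949, at 1.92 ± 0.40 (adjusted p = 0.0322), was lost in every fit (0.0781 to 0.139) but the one without 0.25% YE replicate 3. CG12483, at 1.69 ± 0.29 (adjusted p = 0.0122), was lost without 4% YE replicate 2 (0.0575) or 3 (0.0628), and CG8519, at 1.24 ± 0.20 (adjusted p = 0.00924), without 4% YE replicate 2 (0.0575). CG15711, which exceeded the background on 1 rich array, was at 1.48 ± 0.27 (adjusted p = 0.0163), and was lost without 4% YE replicate 2 (0.0886) or 3 (0.0847) or 0.25% YE replicate 2 (0.0597) or 3 (0.0844). CG7607, at 1.26 ± 0.24 (adjusted p = 0.0209), was lost without 4% YE replicate 1 (0.0849), 2 (0.0839) or 3 (0.0641) or 0.25% YE replicate 3 (0.0992). CG42254 exceeded the background on no rich array and was at least 1.77-fold higher (adjusted p = 0.0237), a call lost without 4% YE replicate 1 (0.0823) or 2 (0.114) or 0.25% YE replicate 2 (0.0558) or 3 (0.115). The odorant-binding protein gene Obp83b measured 1460, 855 and 1070 on 0.25% YE and 456, 555 and 518 on 4% YE (1.12 ± 0.25, adjusted p = 0.0437), and was the 1 called of 29 such genes. Its call was lost in every fit (0.0987 to 0.148) but the one without 0.25% YE replicate 2.

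A few small subunits of the mitochondrial respiratory chain rose by modest amounts. Of 32 complex I genes, the NADH dehydrogenase, 2 were higher and 0 were lower (6.25%, against 1.79% of all genes). Their median was 0.53 and 30 of 32 differences were positive. Of 17 genes of complexes III and IV, which end in cytochrome c oxidase, 3 were higher and 0 were lower (17.6%), with a median of 0.39. Arrays of 16 complex I and 11 complex III and IV genes lay wholly higher on 0.25% YE. Of all probe sets, 23.4% did not overlap, in either direction. With the block 4 and 5 were higher (12.5% and 29.4%, against 1.88% of all probe sets). Without 0.25% YE replicate 2 there were 5 of each. Without 0.25% YE replicate 1 there were 0 and 1, with medians of 0.33 in both lists, without 4% YE replicate 1 there were 0 and 2, and without each of the other 3 arrays there were 0 of each. Medians kept their sign under each scaling: divided by array medians they were 0.35 and 0.21, and as deposited, relative to all probe sets, 0.34 and 0.19.

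The cytochrome c oxidase subunit COX5B measured 5110, 3990 and 4770 on 0.25% YE and 2780, 3040 and 2960 on 4% YE (0.65 ± 0.11, adjusted p = 0.0136). COX7C measured 4830, 3230 and 4100 on 0.25% YE and 2530, 2570 and 2620 on 4% YE (0.64 ± 0.14, adjusted p = 0.0359). The complex I subunit ND-13A measured 3340, 2240 and 2510 on 0.25% YE and 1630, 1550 and 1640 on 4% YE (0.72 ± 0.16, adjusted p = 0.0359). In all 3 the rich arrays were within a narrow range and replicate 1 was the highest of the restricted ones. ND-SGDH, of complex I, was at 0.56 ± 0.13 (adjusted p = 0.046), the oxidase subunit cype at 0.53 ± 0.12 (adjusted p = 0.046), and Tim23, of the channel that imports proteins into mitochondria, at 0.55 ± 0.12 (adjusted p = 0.0418), also without overlap.

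None of these 6 calls held. COX5B was lost without 4% YE replicate 2 (adjusted p = 0.0513) or 3 (0.0625) or 0.25% YE replicate 3 (0.0611). COX7C, ND-13A and cype were lost in every fit (0.0587 to 0.171) but the one without 0.25% YE replicate 2, and ND-SGDH and Tim23 in all 6 (0.0522 to 0.193). Subunits not called included the catalytic-core subunits ND-75 and ND-51, both at 0.02 (adjusted p = 0.982 each). Of 12 ATP synthase genes 0 were called, also with the block, and their median of 0.24 was 0.04 with arrays divided by their medians and 0.02, relative to all probe sets, as deposited. Of 15 import genes Tim23 was the 1 called (6.67%, median 0.38), and with the block 4 were higher.

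Muscle genes rose in part. Of 21 tested, 3 were higher and 0 were lower (14.3%, against 1.79% of all genes), with a median of 0.53 and 14 differences positive. Arrays of 7 lay wholly higher on 0.25% YE (33.3%), where 23.4% of all probe sets did not overlap in either direction. With the block 8 were called higher (38.1%, against 1.88% of all probe sets). Without 4% YE replicate 3 or 0.25% YE replicate 3 there were 0, without 4% YE replicate 1 or 2 there was 1, and without 0.25% YE replicate 1 the median was 0.25. TpnC41C, a troponin C that binds calcium on thin filaments, measured 2330, 2280 and 2420 on 0.25% YE and 965, 1420 and 1310 on 4% YE (0.95 ± 0.17, adjusted p = 0.0149). The LIM protein Mlp60A measured 3000, 2240 and 2700 on 0.25% YE and 1550, 1580 and 1640 on 4% YE (0.72 ± 0.13, adjusted p = 0.0163). The myosin light chain Mlc1 measured 3050, 3660 and 4210 on 0.25% YE and 1620, 2300 and 2420 on 4% YE (0.79 ± 0.17, adjusted p = 0.0359). Every restricted array exceeded every rich one in these, whereas the filament genes Prm, at -0.04 (adjusted p = 0.983), and sls, at -0.06 (adjusted p = 0.954), were not called. The TpnC41C call was lost without 4% YE replicate 3 (0.0598) or 0.25% YE replicate 3 (0.0671), that of Mlp60A without any 1 of the 4% YE arrays (0.0567 to 0.0811) or 0.25% YE replicate 3 (0.0729), and that of Mlc1 in every fit (0.0635 to 0.157) but the one without 0.25% YE replicate 1. The summed level of the 21 muscle genes was 41300 to 44100 on 0.25% YE and 29800 to 34300 on 4% YE, and all 21 exceeded the background on every high-fraction array. The part of muscle mass in these rises and in those of the respiratory chain was not tested.

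**Figure D3:**
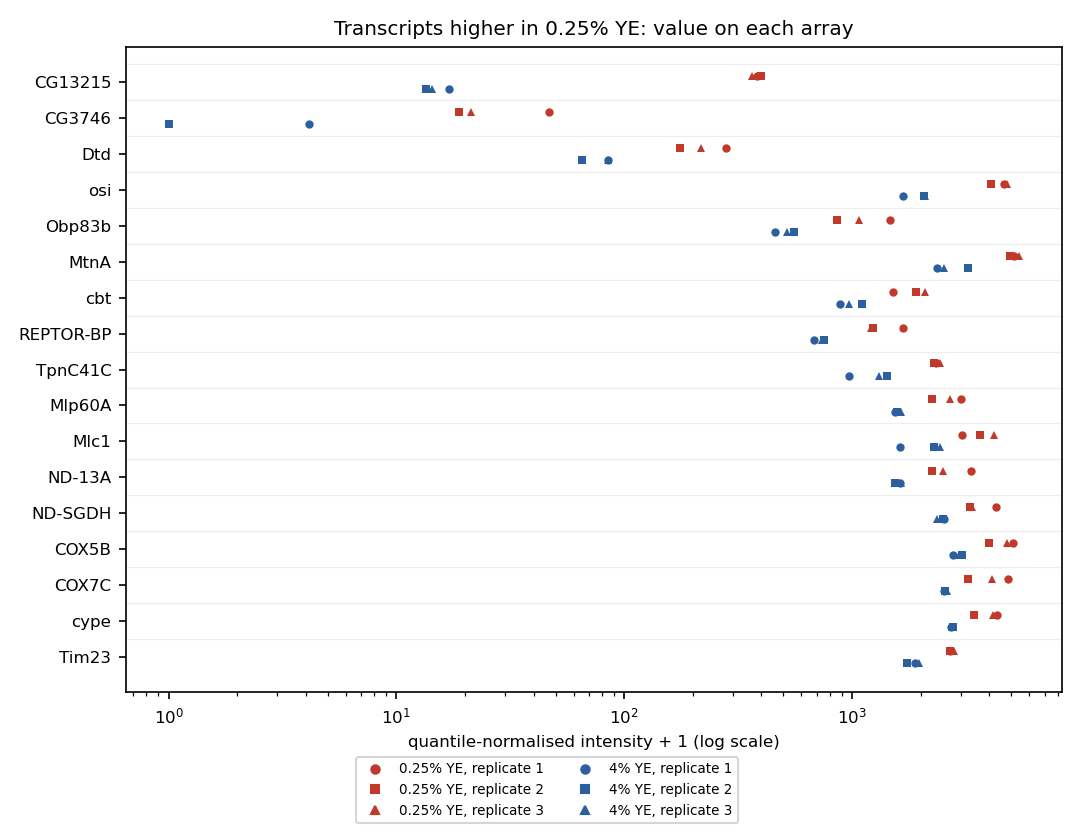
Quantile-normalised intensity plus 1 on a log axis for 17 transcripts called higher, with the 3 arrays on 0.25% YE (red) drawn above the 3 arrays on 4% YE (blue) and a marker shape per replicate number. All red points lie right of the blue points in each row. The gap is wide for CG13215 and small for the respiratory subunits, such as COX7C at 3230 to 4830 on 0.25% YE and 2530 to 2620 on 4% YE.

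A few genes on lists of nutrient signalling were called, and none of these calls held. Of 22 insulin and TOR genes, 1 was higher and 0 were lower (4.55%, against 1.79% of all genes, median 0.18). It was REPTOR-BP, the partner of a transcription factor that TOR holds in check, at 1670, 1240 and 1210 on 0.25% YE and 680, 753 and 736 on 4% YE (0.91 ± 0.18, adjusted p = 0.0277). The insulin receptor InR measured 347, 250 and 284 on 0.25% YE and 237, 166 and 165 on 4% YE, which did not overlap but was not called (0.64 ± 0.29, adjusted p = 0.357, and 0.0569 with the block). Also uncalled were the receptor substrate chico at 0.58 ± 0.39 (adjusted p = 0.607), the transcription factor foxo at 0.28 ± 0.47 (adjusted p = 0.884), the cap-binding protein eIF4E1 at 0.19 ± 0.17 (adjusted p = 0.736), the ribosomal kinase S6k at 0.17 ± 0.35 (adjusted p = 0.912) and the kinase Akt at 0.10 ± 0.45 (adjusted p = 0.959). A list of 10 sugar response genes holds regulators and also the enzyme tobi. Of these 10, 1 rose and 1 fell (20%, against 1.79% of all genes), and with the block 3 were higher and 2 lower. The transcription factor cbt rose to 1510, 1910 and 2080 on 0.25% YE, against 888, 1100 and 972 on 4% YE (0.89 ± 0.18, adjusted p = 0.0319), and tobi fell as above. The ligand daw, at 1.40 (adjusted p = 0.22), and the factor sug, at 1.38 (adjusted p = 0.108), were called with the block (0.00447 and 0.033). The REPTOR-BP call was lost in all 6 fits that left out an array (0.0513 to 0.104) and that of cbt in every fit (0.0839 to 0.139) but the one without 0.25% YE replicate 1.

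Lists of the translation machinery yielded no call, on levels that are relative within the fraction. The list of cytosolic ribosomal proteins was covered in part, since 52 of its entries had no named probe set. Among the 29 tested cytosolic ribosomal proteins, 0 were called at an adjusted p under 0.05 by limma, also with the block. Their differences lay between -0.01 and 0.46, 28 of 29 were positive and the median was 0.27, though it was 0.09 when arrays were divided by their medians and 0.07, relative to all probe sets, as deposited. Without 0.25% YE replicate 1 it was 0.14 and without replicate 2 it was 0.42. Also at 0 calls were 69 mitochondrial ribosomal proteins (median 0.26), 40 initiation factors (median -0.01), 30 aminoacyl-tRNA synthetases (median -0.19), 27 proteasome genes (median -0.10) and 17 genes of protein folding in the endoplasmic reticulum (median -0.41). With the block 1 mitochondrial ribosomal gene and 1 initiation factor were higher. Arrays did not overlap for 24 mitochondrial ribosomal genes (34.8%), all higher on 0.25% YE, and for 8 synthetases (26.7%), all lower, against 23.4% of all probe sets. RpL24-like, on no list and named after its value was seen, was higher, at 1.10 ± 0.20 (adjusted p = 0.017), a call lost without 4% YE replicate 1 (0.073), 2 (0.0564) or 3 (0.0847). Without the arrays numbered 1, 22 of the mitochondrial ribosomal genes were called higher and 12 of the folding genes lower. That fit, chosen after seeing the data, called 1302 of all 11262 probe sets higher and 1211 lower. The folding genes included the disulphide isomerase Pdi at -1.91 (adjusted p = 0.232). No call was made among 44 sperm and testis, 32 accessory gland, 16 phototransduction, 18 neuronal, 11 haemocyte or 25 antimicrobial genes, with medians of 0.17, 0.01, 0.12, 0.40, -0.17 and 0.24. With the block 4 antimicrobial genes (16%) and 1 neuronal gene were higher.

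**Figure D4:**
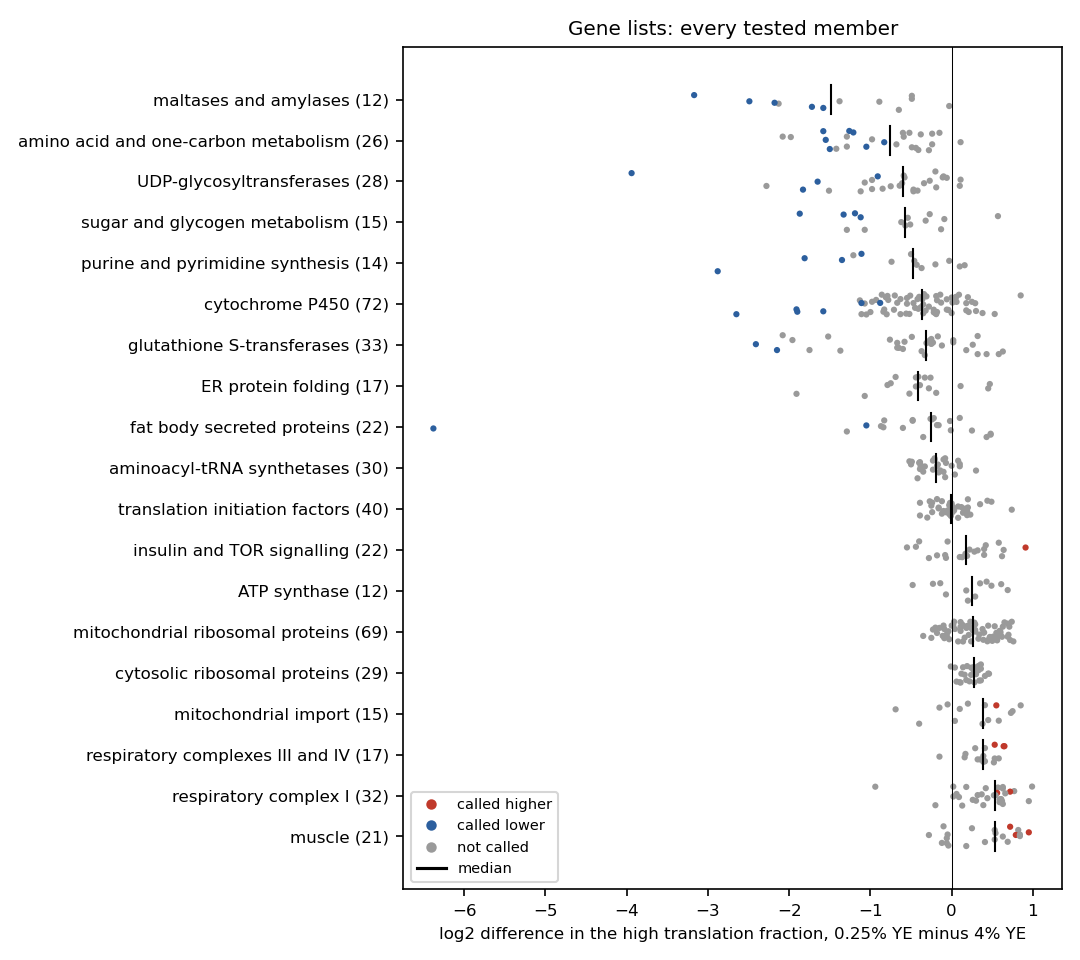
Log2 difference in the high translation fraction, 0.25% YE minus 4% YE, of every tested member of 19 gene lists (number tested in parentheses), with red for called higher, blue for called lower, grey for not called and a black bar for the median. Medians run from -1.48 for maltases and amylases to 0.53 for complex I and muscle, with no red point among the metabolic and detoxification lists.

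Whether these changes were particular to heavy polysomes was examined against the same diet comparison in the low fraction, which rests on 6 other arrays, possibly of the same gradients. There 109 probe sets were called (0.968%), 11 higher and 98 lower. Of these, 69 were called in the high fraction in the same direction, which is 63.3% of the low-fraction and 34.7% of the high-fraction calls. Falls were shared: of the 138, 66 were called in the low fraction and 137 had the same sign, with medians of -1.51 on heavy and -1.31 on light polysomes. Gart was at -2.88 on heavy and -2.86 on light polysomes, Lsp2 at -6.38 and -6.61, and Cyp309a1 at -2.65 and -2.59.

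Rises were smaller in the low fraction. All 61 had the same sign there, but 3 were called, and the median was 0.99 on heavy and 0.34 on light polysomes. Lists differed in this: the median of complex I was 0.53 on heavy and -0.02 on light polysomes, and that of complexes III and IV was 0.39 and 0.07, whereas that of muscle was 0.53 and 0.41 and that of mitochondrial import 0.38 and 0.24. In the direct test, which subtracts the low-fraction diet difference from the high-fraction one, 1 probe set of 11262 was called (0.00888%), and it was not among the 199. An unadjusted p under 0.05 for this difference was reached by 41 of the 61 rises (67.2%) and 26 of the 138 falls (18.8%), against 4.3% of all probe sets. Since these were selected on their high-fraction change, which enters the difference, the shares describe them and test nothing. Among them, the diet difference of COX5B was 0.65 on heavy and 0.11 on light polysomes, that of MtnA 0.94 and 0.34, that of TpnC41C 0.95 and 0.16 and that of the falling Pepck1 -1.19 and -0.44 (adjusted p = 0.995 by limma for the difference between fractions in each). None of the 199 reached an adjusted p under 0.05 by limma, so a change particular to heavy polysomes was not shown for any of them.

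**Figure D5:**
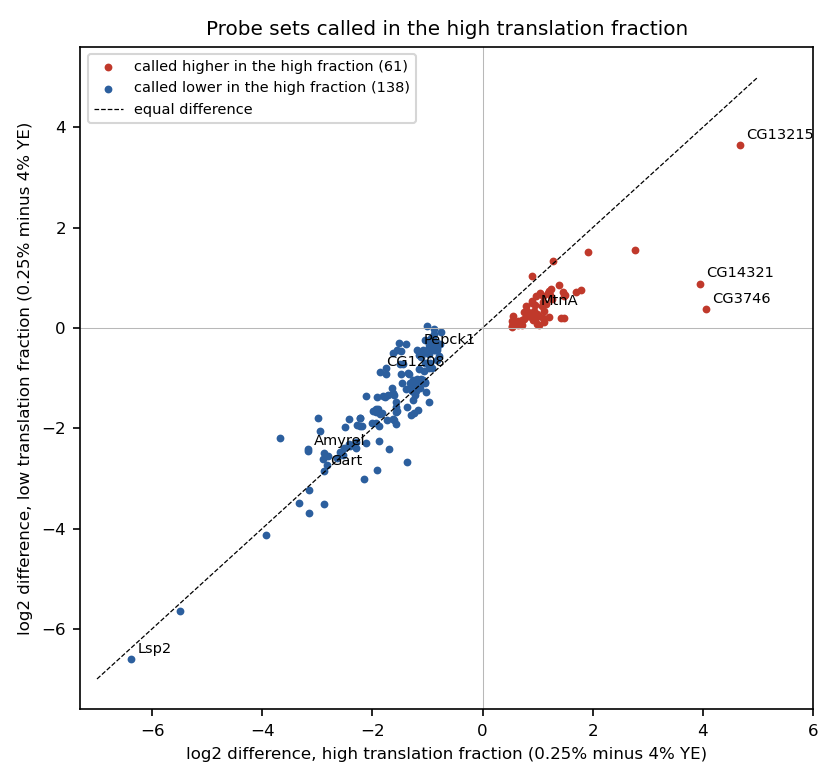
Log2 difference, 0.25% YE minus 4% YE, in the high translation fraction (horizontal) and in the low translation fraction (vertical) for the 199 probe sets called in the high fraction. The falls (blue) scatter around the line of equal difference, and most rises (red) lie below it, with medians of 0.99 on heavy and 0.34 on light polysomes.

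Some of the changed genes lie side by side in the genome. In the RefSeq gene order of the fly's Release 6 assembly, restricted to 9453 tested and placed genes, 13 of 124 genes with a lower call had a direct neighbour that was also called lower (10.5%), against 2.57% of all these genes. The neighbours included Cyp309a1 with Cyp309a2, CG6283 with CG6271, and the row CG17751, CG17752 and CG16727. Of 49 genes with a higher call, 4 had a neighbour called higher (8.16%, against 1.03%), the pairs being cype with CG14022 and Dtd with RpL24-like. Neighbours can be copies of one another that share probe sequence, so they are not independent measurements.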

How the data were processed

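The deposited values were intensities per probe set from 12 Affymetrix Drosophila 2.0 arrays, on a linear scale with values below 0. How the authors summarised probes, subtracted background or scaled arrays is not given in the sources used here, and array medians of 39.3 to 95.6 show no common scale. The 100 control probe sets were left out of 18869. Arrays were quantile-normalised, floored at 0 and put on the log2(value + 1) scale, on which folds are given, and the dimmest 40% of probe sets by mean were dropped, leaving 11262. Symbols came from the platform annotation, updated by gene ID for 13544 of 13647 probe sets with 1 symbol, and the brightest probe set stands for a gene in lists.

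One model with 4 group means (8 residual degrees of freedom) was fitted in limma 3.58.1 (R 4.3.3; lmFit, eBayes with trend), two-sided, with Benjamini-Hochberg adjustment over all 11262 probe sets. Deviations from group means correlated at 0.669, 0.4 and 0.429 between high-fraction arrays sharing a number in the titles (the first 4% YE array has none and is counted as 1). Other arrays sharing a number correlated at 0.078 to 0.579. The numbers were taken to pair samples, though no comparison with arrays of unlike number is given. Replicates 1 that stand apart in each group can raise these values too. The replicate block is given beside results it changes. On simulated data for the high-fraction comparison, with 11262 probe sets, 34 of 100 changed 2-fold and 82 of 100 changed 4-fold were recovered, and 2 unchanged ones were called. The simulated noise was independent between arrays, without the shared deviations seen here, so these rates need not hold for the data.

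The 51 gene lists and the named genes were chosen with earlier results of these data known. Named are the 15 largest rises and 15 largest falls among called genes whose arrays do not overlap, up to 4 called members of smallest p per list, and 6 insulin and TOR genes. The other genes named are list members given as examples or were chosen after their values were seen. List members were corrected for gene identity afterwards, without regard to values. Of the list entries, 150 had no named probe set.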

Additional observations from a re-analysis of the deposited data

Results flagged for a closer look

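The diet difference of CG43131 differed between the fractions by the test of the difference itself, at 5.3 log2 (adjusted p = 0.0221, limma). On 0.25% YE it measured 17.4, 34.7 and 38 in the high fraction and 0, 0 and 1.08 in the low fraction. On 4% YE it measured 31.1, 37.6 and 31.5 in the high fraction and 66.8, 53.9 and 53.2 in the low fraction. The log2 diet difference was -0.22 (adjusted p = 0.912) in the high and -5.52 (adjusted p = 0.000174) in the low fraction. The low-fraction arrays on 0.25% YE were thus the ones that stood apart. Since they were not above background, 5.3 and -5.52 depend on the floor and the pseudocount. Against their background the fall in the low fraction was at least 2.75-fold, and the difference between the fractions at that bound was 1.24 log2. No probe set was called for this difference with the replicate block, with a pseudocount of 16 or in 8 of the 12 fits that left out 1 array.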

How the results depend on the processing

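Higher and lower calls in the high fraction numbered 6 and 35 with the values as deposited and 212 and 262 with the replicate block. Higher calls numbered 32 with each array divided by its median, 35 without an intensity trend and 26 over the 6 high-fraction arrays alone. Chosen after seeing the data, leaving out the arrays numbered 1 gave 1302 higher and 1211 lower, and the block over the 6 high-fraction arrays alone 752 and 756. Leaving out 1 array gave 15 to 52 higher and 45 to 137 lower. Calls in the low fraction, 109, numbered 42 as deposited, 254 with the replicate block and 45 to 135 with 1 array left out. The difference between fractions, with 1 call, had 0 with a pseudocount of 16, the lowest 60% left out or the replicate block, 4 with no filter, 3 without the trend and 0 to 1 with 1 array left out. The cause was not tested. No named gene changed direction where it was called. Of 72 named calls, 26 held without any single high-fraction array, 48 were lost as deposited and 0 with the replicate block. With 3 arrays per group, changes of 2-fold were often missed in the simulation, where 34 of 100 were recovered, and smaller ones were not simulated.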
